A study of Mus musculus with 84 samples.

Results

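The liver response to semaglutide at its higher dose was described by comparing 6 liver libraries of mice given semaglutide at 100 nmol/kg with 6 liver libraries of vehicle-treated mice, which together made 12 of the 42 liver libraries and 12 of the 84 libraries of the series. The members were taken from the liver table by the library number in each sample's title, and the comparison ran over every gene that passed a filter on low values, 15964 of the 48794 listed. The series measured RNA in liver and epididymal fat of diet-induced obese mice treated with vehicle, with BI 456906, a peptide that acts on both the glucagon and the GLP-1 receptor, or with semaglutide. Animals of all groups were male C57BL/6J mice, aged 22 weeks at the start of dosing, kept on a diet with 60% of its energy as fat and dosed subcutaneously once a day for 30 days. The control group received the vehicle of the injections alone and stayed on the same diet. A second semaglutide group, at 20 nmol/kg, also held 6 liver libraries and is given beside the higher dose where it adds to it. Both semaglutide groups were set against the same 6 vehicle libraries, so their differences from vehicle share those controls.

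Semaglutide is a long-acting acylated analog of glucagon-like peptide-1 (GLP-1), a gut hormone that raises insulin secretion, slows gastric emptying and lowers food intake through a Gs-coupled receptor found mainly on pancreatic beta cells and neurons. Hepatocytes respond chiefly to glucagon, through the related glucagon receptor, and to insulin. Fed hepatocytes take up glucose, store it as glycogen and turn the surplus into fatty acids and triglyceride under the control of the factors SREBP-1c and ChREBP, while fasting hepatocytes oxidise fatty acids, make ketone bodies and release glucose. In obesity fed by a high-fat diet the mouse liver stores triglyceride in lipid droplets, recruits macrophages and can lay down matrix.

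Receptor transcripts were looked at first. The GLP-1 receptor Glp1r was listed at 0 to 0.05 TPM in vehicle livers and 0 to 0.07 TPM in semaglutide livers, with at most 4 recovered reads in any of the 12 libraries, and the GIP receptor Gipr at 0 to 0.01 and 0 to 0.01 TPM. Neither passed the filter. The glucagon receptor Gcgr was abundant, with 216–229.9 TPM (median 227.23) in vehicle and 182–228 TPM (median 215) after semaglutide, and a log2 fold change of -0.18 ± 0.07 (standard error, FDR 0.0327). Those ranges overlapped, and this small fall did not pass when vehicle replicate 44, 47 or 48 or semaglutide replicate 81, 83 or 84 was left out. With the trend over exon length removed it was -0.04 with an FDR of 0.65.

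Depth was 40479375 to 46477987 recovered reads in the vehicle libraries and 30040261 to 48176873 in the semaglutide libraries, where replicate 81 was lowest. At 20 nmol/kg it was 21676902 to 44367319, with replicate 77 lowest. The labelled tissue held in the data, since the 6 hepatocyte markers, albumin and transthyretin among them, summed to 78149 to 91187 TPM in vehicle and to 89973 to 118460 TPM after semaglutide, while all 6 pancreatic islet markers were at 0 in the 12 libraries. Of 15 summed marker lists, 5 differed between the groups in a two-sided exact permutation test over all arrangements of the 12 libraries, each with a Benjamini-Hochberg adjusted p over the 15 lists. Hepatocyte and periportal hepatocyte markers were higher, with ratios of means of 1.19 and 1.26 and an adjusted p of 0.0325 for both. The periportal sum had means of 5937 TPM in vehicle and 7477 TPM after semaglutide. Its member Pck1, described below, went from a mean of 1056 to 2299 TPM, while its member Hsd17b13 fell from 755 to 473 TPM. A change in zonation was not tested. Neutrophil markers, of which Ly6g was at 0, and B cell markers were lower, with ratios of 0.447 and 0.588 and an adjusted p of 0.0325 for both. The 6 neutrophil markers summed to only 3.5 to 6.1 TPM in vehicle and 1.16 to 3.52 TPM after semaglutide. The adipocyte sum was lower with a ratio of 0.495 and an adjusted p of 0.0455. In that sum Cfd went from 5.44–18.7 TPM (median 11.7) to 0.04–5.06 TPM (median 0.365), while Adrb3 went the other way, with a log2 fold change of 0.67 and an FDR of 0.00744. Adipoq, Lep, Plin1 and Retn lay at or under 0.53 TPM in the 12 libraries. With recovered reads scaled to the library total in place of TPM only the neutrophil difference passed. Values for stellate, endothelial, Kupffer, cholangiocyte, erythroid, T and NK cell, acinar, muscle and pericentral hepatocyte markers overlapped or did not pass the adjusted test. Among these the cholangiocyte sum had a ratio of 0.457, or 0.484 by scaled reads, and an adjusted permutation p of 0.0812 in TPM. Its ranges were 37.35 to 167.66 TPM in vehicle and 19.56 to 52.24 TPM after semaglutide. In bulk liver RNA, fewer cells of a type and less RNA per cell cannot be told apart.

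Fold changes followed exon length. In each library the median of genes with more than 6000 exonic bases minus that of genes with fewer than 1500, as log2 values relative to each gene's mean over the 42 libraries, was -0.64 to -0.15 in vehicle livers and 0.01 to 0.14 after semaglutide, so the groups did not overlap. Vehicle replicate 48 lay lowest. The median log2 fold change of the tested genes ran from -0.17 in the shortest decile of genes to 0.33 in the longest, where 55.1% of genes were higher and 6.85% lower at a false discovery rate (FDR) of at most 0.05. The 6 libraries of the lower dose lay at 0.00 to 0.16, and their deciles ran from -0.20 to 0.34. The part of length in any single gene's result was not tested. A second set of values, with the trend over exon length removed within each library, is given beside some of the results that it changed. Results without a second value moved too. The log2 fold change of Gstm1 went from -0.73 to -0.54, that of Cbs from 0.78 to 0.62, and the median of the lymphocyte list from -0.91 to -0.71. The length-adjusted alternative was chosen after the data had been seen, and it also removes any true difference that runs with length.

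**Figure D1:**
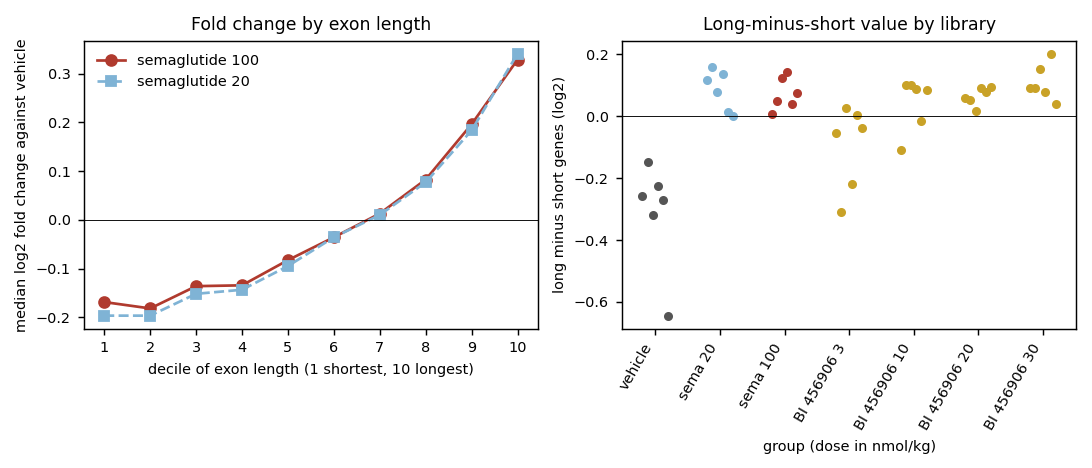
Left, median log2 fold change against vehicle for deciles of the tested genes by exon length, for semaglutide at 100 (red) and 20 nmol/kg (light blue); right, the long-minus-short value (log2) of each of the 42 liver libraries by group, 1 point a library. Medians run from -0.17 to 0.33 at the higher dose, and the 6 vehicle libraries, between -0.64 and -0.15, lie below all 12 semaglutide libraries.

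Semaglutide changed the liver transcriptome broadly. With a call requiring an FDR of at most 0.05 and a log2 fold change of at least 1 in size, 492 genes (3.08% of those tested) were higher and 586 (3.67%) lower than in vehicle livers, 6.75% in all. Without the fold requirement 3835 genes (24%) were higher and 3851 (24.1%) lower, with a median size of 0.47 on the log2 scale among them, and the median over all tested genes was -0.02. Of the 1078 called genes, 436 had 6 TPM values that did not overlap the 6 of vehicle, against 17.5% of all tested genes. Higher calls made 45.6% of the calls here, 40.5% with library size alone in place of TMM scaling, and 57.4% or 55.9% in tests on log2 TPM with 1 or 0.1 added.

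The largest rises and falls named here were taken among called genes with a mean of at least 1 TPM in the higher group and TPM values that did not overlap between the groups, so that their separation follows from the choice. They are shown by library in the heat map of leading genes. Cep85l, on chromosome 10 at 53273443 to 53379947 of GRCm38 and coding for a centrosomal protein, had 0.06–0.37 TPM (median 0.15) in vehicle and 4.32–6.83 TPM (median 6.23) after semaglutide, a log2 fold change of 4.53 ± 0.64 (standard error, FDR 5.3e-07). Scara5, a scavenger receptor that binds ferritin, went from 0.45–1.12 TPM (median 0.8) to 4.23–25.7 TPM (median 13.8), with a log2 fold change of 3.88 ± 1.40 (standard error, FDR 0.0207), a wide error. Fam107a, a stress-responsive actin regulator, rose with a log2 fold change of 3.49 ± 0.99 (standard error, FDR 0.00383). Lpin1, the phosphatidate phosphatase lipin-1 that also acts with PGC-1alpha as a coactivator, rose from 19.4–30.6 TPM (median 23.3) to 118–245 TPM (median 195), a log2 fold change of 2.87 ± 0.46 (standard error, FDR 3.6e-06), and was one of the more abundant of these genes. Mt2, a zinc-binding metallothionein, had 37.4–244 TPM (median 89.2) in vehicle and 451–1059.8 TPM (median 633) after semaglutide, with a log2 fold change of 2.73 ± 0.47 (standard error, FDR 9.5e-06). Zbtb16, the zinc finger repressor PLZF, rose from 3.22–9.62 TPM (median 5.28) to 26.7–36.7 TPM (median 33.5), a log2 fold change of 2.49 ± 0.35 (standard error, FDR 4.2e-07). The other leading rises were Lmbrd2, Klhl11, Zfp445, Lcor, Zfp871 and Atad2b, with log2 fold changes of 3.19, 3.14, 2.87, 2.68, 2.68 and 2.47 from vehicle medians of 0.135 to 2.46 TPM. Zfp445 and Atad2b, with 7409 and 15110 exonic bases, kept log2 fold changes of 2.71 and 2.06 once the length trend was removed.

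The falls chosen in the same way were genes at low to moderate level in vehicle livers. Cidea, a lipid droplet protein named after its values were seen, fell by 3.19 on the log2 scale with an FDR of 3.8e-05, from 6.18–55.6 TPM (median 42.5) to 1.91–13.1 TPM (median 3.06), and was left out of them because its ranges overlapped. Cfd, on chromosome 10 at 79890853 to 79892655 and coding for complement factor D, an adipocyte-enriched serine protease, had 5.44–18.7 TPM (median 11.7) in vehicle and 0.04–5.06 TPM (median 0.365) after semaglutide, a log2 fold change of -4.92 ± 0.62 (standard error, FDR 7.6e-08). Without semaglutide replicate 80, the highest of its group, the log2 fold change was -5.67. Gsta1, a glutathione transferase whose reads may be shared with close paralogs, went from 8.54–88 TPM (median 41.3) to 0.45–3.72 TPM (median 1.12), a log2 fold change of -4.79 ± 0.83 (standard error, FDR 1.1e-05). Ubd, the inflammation-induced ubiquitin-like protein FAT10, fell from 2.94–29.1 TPM (median 10.8) to 0.12–1.40 TPM (median 0.785), with a log2 fold change of -4.11 ± 0.76 (standard error, FDR 3.3e-05). Anxa8, an annexin, Themis, a signalling protein of T cells, and Ephb2, an ephrin receptor, fell by 4.56, 3.89 and 3.44 on the log2 scale, from vehicle medians of 1.12 to 1.58 TPM. Smpd3, the neutral sphingomyelinase, fell from 2.34–6.85 TPM (median 4.11) to 0.22–1.15 TPM (median 0.545), a log2 fold change of -3.13 ± 0.47 (standard error, FDR 1.5e-06). The cytochrome P450 Cyp2a22 and the glutathione transferase Gstm3 fell by 2.99 and 2.65, and Clec2h, Ccl2 and Pls1 by 3.17, 3.09 and 3.02.

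**Figure D2:**
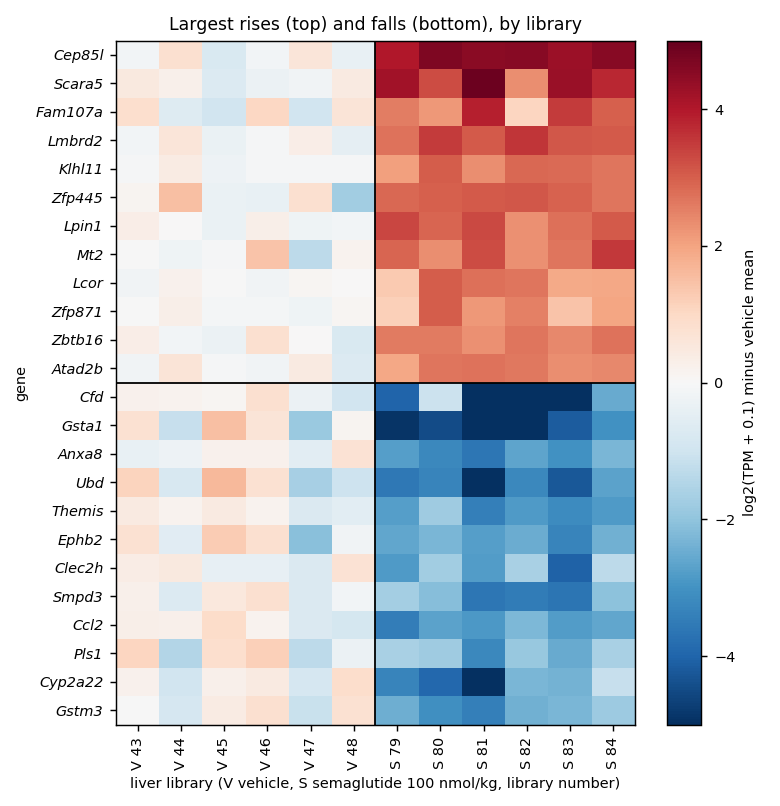
Heat map of log2(TPM + 0.1) minus the vehicle mean for the 12 largest rises (top) and 12 largest falls (bottom); columns are the 6 vehicle (V) and 6 semaglutide 100 nmol/kg (S) libraries with their library numbers. The rises are red and the falls blue in all 6 treated libraries, with Cfd least reduced in semaglutide replicate 80 at 5.06 TPM.

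Genes that make and store fat were mostly lower. Of 18 tested genes of de novo lipogenesis, the path from citrate to fatty acids and triglyceride, 10 fell, 1 rose and 7 did not pass at an FDR of at most 0.05, where 24.1% of all tested genes were lower and 24% higher, with a median log2 fold change of -0.50 against -0.02 over all tested genes. Thrsp, the lipogenic regulator Spot 14, had 244–628 TPM (median 397) in vehicle and 20.9–178 TPM (median 74.9) after semaglutide, a log2 fold change of -2.46 ± 0.42 (standard error, FDR 8.0e-06). No treated liver reached the lowest vehicle liver. Slc25a1, the mitochondrial citrate carrier, fell with little spread, from 171–218 TPM (median 191) to 123–149.6 TPM (median 137), a log2 fold change of -0.59 ± 0.08 (standard error, FDR 1.5e-07). Acss2, which activates acetate, fell with a log2 fold change of -1.11 ± 0.24 (standard error, FDR 0.00027), and Srebf1, which codes for SREBP-1, with a log2 fold change of -0.90 ± 0.22 (standard error, FDR 0.000702). The fatty acid synthase gene Fasn went from 113–207 TPM (median 146) to 57.8–102 TPM (median 79.5) with no overlap, and had a log2 fold change of -0.52 ± 0.18 (standard error, FDR 0.0163). Its FDR was 0.0535 without semaglutide replicate 82, and its log2 fold change was -0.81 with the length trend removed. Scd1, the stearoyl-CoA desaturase, spread from 211 to 1763 TPM among treated livers around a vehicle range of 1039 to 1800 TPM, and its log2 fold change of -0.79 ± 0.34 (SE) had an FDR of 0.0517. Without semaglutide replicate 81 it was -0.36 with an FDR of 0.306.

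Lipid droplet and triglyceride storage genes gave a similar count. Among 21 tested, 11 fell and 2 rose, beside 24.1% and 24% of all tested genes, with a median of -0.35. At the fold required for a call 7 fell and 1 rose, beside 3.67% and 3.08%. Mogat1, a monoacylglycerol acyltransferase that is raised in fatty livers, fell from 5.21–14.9 TPM (median 10.6) to 1.73–4.41 TPM (median 2.56), a log2 fold change of -2.02 ± 0.26 (standard error, FDR 1.3e-07). Fitm1, which helps package triglyceride into droplets, fell from 84.5–104 TPM (median 99.6) to 21.9–57 TPM (median 42.7), a log2 fold change of -1.38 ± 0.17 (standard error, FDR 7.3e-08). Cidec, the droplet fusion protein, had 33–165 TPM (median 138) in vehicle and 21.4–140.3 TPM (median 26.9) after semaglutide. In 5 treated livers it lay at 21.4 to 36.9 TPM, and replicate 81, at 140.3 TPM, lay well inside the vehicle range, whose lowest liver was at 33 TPM. Its log2 fold change of -1.57 ± 0.49 (standard error, FDR 0.00763) became -1.98 with an FDR of 0.000908 without that library. Plin2, the main droplet coat protein of hepatocytes, ranged from 439.5 to 1184 TPM after semaglutide around a vehicle range of 697 to 912 TPM, with a log2 fold change of -0.15 (95% interval -0.54 to 0.25). Lpin1, described above, was the member that rose most.

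**Figure D3:**
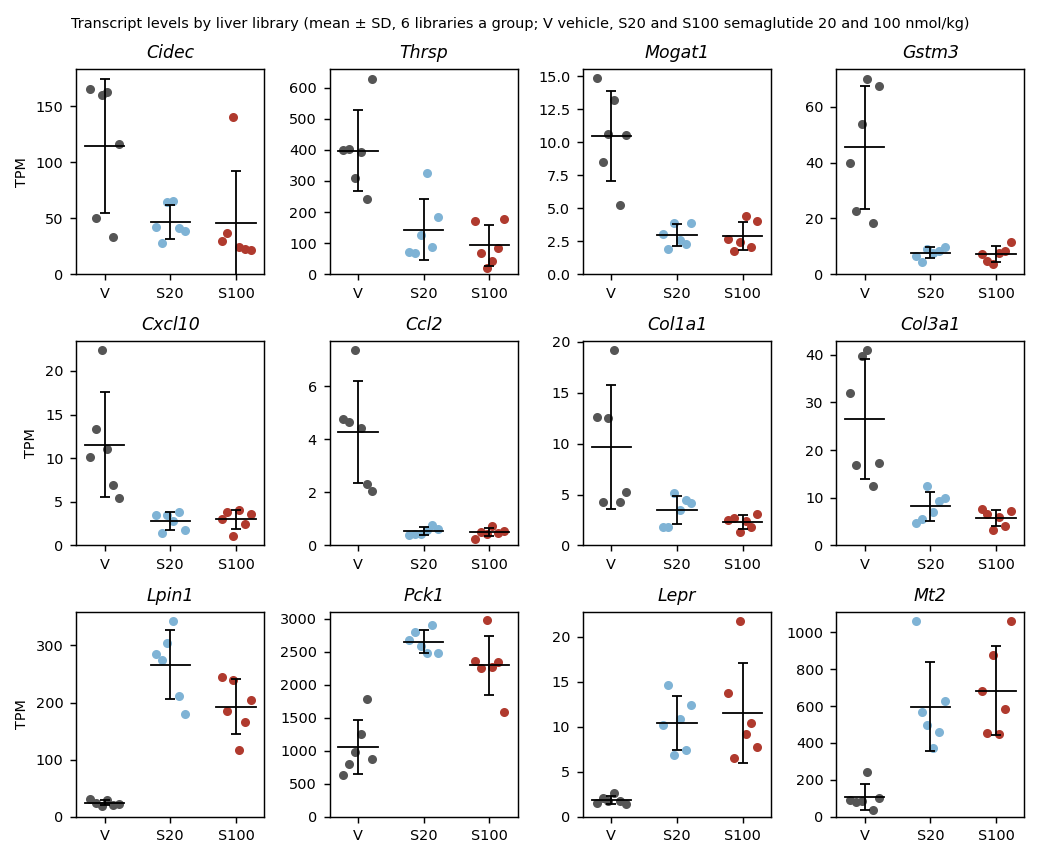
TPM of 12 genes in each liver library of vehicle (V), semaglutide 20 (S20) and semaglutide 100 nmol/kg (S100), with the mean and SD of the 6 libraries; each axis starts at 0, which cuts the lower error bar of Cidec. Mogat1, Gstm3, Cxcl10 and both collagens have lower means and Lpin1, Lepr and Mt2 higher means in both semaglutide groups. Of these, Col1a1 overlaps at the lower dose, with vehicle livers at 4.25 to 19.2 TPM and the lower dose at 1.80 to 5.19 TPM. Cidec overlaps too, with vehicle livers at 33 to 165 TPM, the lower dose at 27.5 to 65.7 TPM and 1 liver of the higher dose at 140.3 TPM.

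Cholesterol genes moved in both directions. Of 25 genes of cholesterol synthesis and uptake, 9 fell, 3 rose and 13 did not pass, with a median of -0.23. Over all tested genes 24.1% fell and 24% rose. Acat2, the cytosolic thiolase that opens the path, fell from 41.7–74.7 TPM (median 58.7) to 19.8–33.7 TPM (median 28.9), a log2 fold change of -1.16 ± 0.16 (standard error, FDR 2.2e-07), and Nsdhl, a later sterol dehydrogenase, had a log2 fold change of -0.98 ± 0.27 (standard error, FDR 0.00259). Hsd17b7, another late enzyme, rose with a log2 fold change of 0.92 ± 0.21 (standard error, FDR 0.000394). With the length trend removed 1 member of the list rose and 8 fell.

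Rises among oxidation genes lay near the share of all genes by FDR alone, but not at the fold required for a call. Of 25 genes of fatty acid oxidation, ketogenesis and PPARalpha targets, 7 rose and 3 fell, beside 24% and 24.1% of all tested genes. At the fold required for a call 4 rose and none fell, beside 3.08% and 3.67%. The median was 0.01. Rises numbered 10 with the length trend removed, and falls 6 where library size alone set the scale. Cyp4a14, a fatty acid omega-hydroxylase under PPARalpha, rose from 627–1252 TPM (median 808) to 1264–3813 TPM (median 2267), a log2 fold change of 1.43 ± 0.24 (standard error, FDR 9.1e-06). Ppargc1a, the coactivator PGC-1alpha of fasting metabolism, rose from 1.07–1.84 TPM (median 1.63) to 3.25–4.65 TPM (median 4.33), a log2 fold change of 1.19 ± 0.14 (standard error, FDR 4.2e-08). Both separated the groups, but they were named for their small p. Of the 25 members 4 had values that did not overlap, beside 17.5% of all tested genes. Cpt1a, the gate of mitochondrial fatty acid entry, had 243–297 TPM (median 260.0) in vehicle and 249.8–345 TPM (median 273) after semaglutide, and its log2 fold change of 0.01 had a 95% interval of -0.16 to 0.19. Fgf21, a fasting hormone, had a log2 fold change of 0.53 with an FDR of 0.0636, which became 0.73 with an FDR of 0.00696 without semaglutide replicate 84 and 0.73 with an FDR of 0.0126 with the length trend removed.

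Lipoprotein and bile genes included both directions. Of 22 lipoprotein and lipase regulator genes 8 rose and 5 fell, beside 24% and 24.1% of all tested genes. Those counts were 12 and 5 with the length trend removed. Apoc2, an activator of lipoprotein lipase named after its values were seen, is counted as a rise (log2 fold change 0.51, FDR 0.00369) although its mean TPM went from 901.5 to 500.2. Apoe, the most abundant of those named, fell from 50199–56783 TPM (median 53786) to 39181–45231 TPM (median 43984), a log2 fold change of -0.39 ± 0.06 (standard error, FDR 4.7e-06), or -0.24 with the length trend removed. Apob, the structural protein of VLDL with 13934 exonic bases, had a log2 fold change of 0.48 ± 0.09 (standard error, FDR 1.7e-05), and 0.10 with an FDR of 0.175 with the length trend removed. Abca1, which loads cholesterol onto HDL, rose with a log2 fold change of 0.77 ± 0.15 (standard error, FDR 4.2e-05), and 0.49 on the same length-adjusted scale. Among 20 genes of bile acid synthesis, transport and FXR signalling, 6 rose and 3 fell, beside 24% and 24.1% of all tested genes, with a median of -0.03 that was 0.09 with the length trend removed. The canalicular exporters Abcc2 and Abcb11 rose, the first from 97.3–122 TPM (median 112) to 157–189 TPM (median 164), a log2 fold change of 0.83 ± 0.11 (standard error, FDR 1.4e-07), and the second with a log2 fold change of 0.51 ± 0.11 (standard error, FDR 0.000206). Nr5a2, the nuclear receptor LRH-1, rose with a log2 fold change of 0.35 ± 0.08 (standard error, FDR 0.000262). The synthesis enzymes Cyp7a1 and Cyp8b1 had log2 fold changes of -0.03 (95% interval -0.74 to 0.68) and -0.08 (95% interval -0.37 to 0.21), and Cyp7a1 varied from 21.2 to 174 TPM among treated livers.

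Glucose genes were lower on the glycolytic side. Of 20 genes of glucose uptake, glycolysis and the pentose phosphate path 15 fell, 3 rose and 2 did not pass, with a median of -0.39. Over all tested genes 24.1% fell and 24% rose. In 10 members the TPM values did not overlap between the groups, as in 17.5% of all tested genes. Tkt, transketolase, fell from 67.2–88.7 TPM (median 78.2) to 38.3–53.8 TPM (median 49.5), a log2 fold change of -0.78 ± 0.08 (standard error, FDR 5.4e-09). Taldo1, transaldolase, another enzyme of the same branch, fell from 118–151 TPM (median 140.1) to 82.4–104 TPM (median 97), a log2 fold change of -0.61 ± 0.06 (standard error, FDR 6.0e-09). Eno1, a glycolytic enolase, fell with a log2 fold change of -0.56 ± 0.07 (standard error, FDR 3.0e-08). These falls were under 2-fold but larger than the spread between livers in each of the 3, which were named for the smallest p in the list. With the length trend removed 13 members fell and 3 rose.

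**Figure D4:**
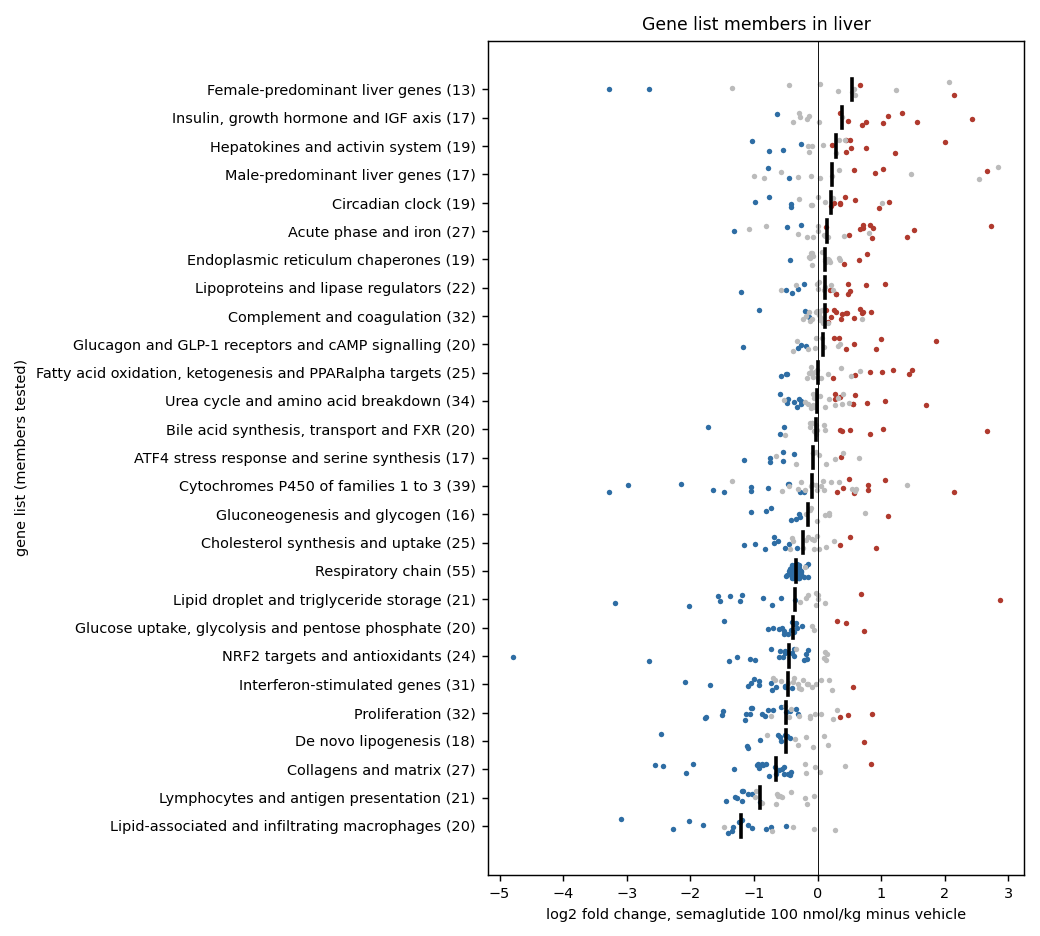
Log2 fold change (semaglutide 100 nmol/kg minus vehicle) of every tested member of the 27 gene lists, sorted by list median (black bar); red and blue points are higher and lower at an FDR of at most 0.05, grey points did not pass. Macrophage genes have the lowest median, -1.21, and the respiratory chain is a tight cluster around -0.33.

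Among 16 genes of gluconeogenesis and glycogen 7 fell and 1 rose, beside 24.1% and 24% of all tested genes. Falls numbered 9 with the length trend removed. The riser was Pck1, which codes for the cytosolic PEP carboxykinase that commits carbon to glucose, with 632–1783 TPM (median 933) in vehicle and 1583–2988 TPM (median 2309) after semaglutide, a log2 fold change of 1.11 ± 0.17 (standard error, FDR 1.3e-06). The lowest treated liver lay within the vehicle range. Ugp2 and Gbe1, which make the sugar donor and the branches of glycogen, fell, the first from 163.47–197 TPM (median 190.4) to 67.5–112 TPM (median 107), a log2 fold change of -1.04 ± 0.14 (standard error, FDR 3.0e-07), and the second with a log2 fold change of -0.74 ± 0.10 (standard error, FDR 3.1e-07). G6pc, the phosphatase that releases free glucose, had 229–372 TPM (median 302) in vehicle and 254–564 TPM (median 299) after semaglutide, with a log2 fold change of 0.12 (95% interval -0.23 to 0.46). Rises numbered 2 without vehicle replicate 44 and 3 without semaglutide replicate 81.

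Hormone receptors and binding proteins of the insulin, growth hormone and IGF axis were among the higher genes. Of the 17 tested, 9 rose and 1 fell, beside 24% and 24.1% of all tested genes, with a median of 0.38. Lepr, the leptin receptor, rose from 1.46–2.59 TPM (median 1.75) to 6.57–21.7 TPM (median 9.80), a log2 fold change of 2.43 ± 0.32 (standard error, FDR 1.6e-07). Igfbp2 and Igfbp1, IGF-binding proteins that insulin lowers, rose. Igfbp2 went from 204–437 TPM (median 275) to 652–1205 TPM (median 732), a log2 fold change of 1.34 ± 0.17 (standard error, FDR 9.6e-08), and Igfbp1 from 75.1–178 TPM (median 131) to 211–1298 TPM (median 291), a log2 fold change of 1.56 ± 0.32 (standard error, FDR 0.000107). Semaglutide replicate 81 was the highest for both, and without it the Igfbp1 value was 1.21 with an FDR of 0.000665. Insr, the insulin receptor with 13746 exonic bases, rose with a log2 fold change of 0.71 ± 0.10 (standard error, FDR 7.4e-07), or 0.33 with the length trend removed. Igf1 had a log2 fold change of 0.35 ± 0.13 (standard error, FDR 0.0313), which did not pass without vehicle replicate 45 or 46 or semaglutide replicate 81 or 83, and was 0.09 with an FDR of 0.612 with the length trend removed. The single fall became 2 without vehicle replicate 46, 47 or 48 or semaglutide replicate 83. With the length trend removed 7 rose and 3 fell, with a median of 0.25.

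Of 20 tested genes of glucagon and GLP-1 receptors and cAMP signalling 7 rose and 4 fell, beside 24% and 24.1% of all tested genes. The falls numbered 2 without semaglutide replicate 83. Crtc2, a cAMP-regulated coactivator of CREB, had a log2 fold change of 0.33 ± 0.06 (standard error, FDR 8.9e-06), and Gnas, the Gs alpha subunit, fell with a log2 fold change of -0.26 ± 0.04 (standard error, FDR 5.5e-06), or -0.56 with the length trend removed. Creb1 had a log2 fold change of 0.57 in reads, 0.19 with the length trend removed, and went from 1.63 to 2.58 TPM in vehicle up to 3.81 to 5.51 TPM. Nnmt, nicotinamide N-methyltransferase, rose from 43.9–155 TPM (median 99.3) to 118–289 TPM (median 193), a log2 fold change of 0.92 ± 0.28 (standard error, FDR 0.00623), with overlapping ranges. Among 19 hepatokines and activin system genes 8 rose and 4 fell, beside 24% and 24.1% of all tested genes. Those counts were 9 and 2 with the length trend removed. Enho, which codes for the secreted peptide adropin, rose from 4.15–8.66 TPM (median 5.58) to 18.4–35.5 TPM (median 24.4), a log2 fold change of 2.01 ± 0.31 (standard error, FDR 2.5e-06). Hgf, hepatocyte growth factor, rose with a log2 fold change of 1.22 ± 0.19 (standard error, FDR 1.8e-06), and Ahsg, fetuin-A, with a log2 fold change of 0.45 ± 0.07 (standard error, FDR 3.1e-06).

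Counts for amino acid breakdown genes lay near those of all genes. Of 34 genes of the urea cycle and amino acid breakdown 9 rose and 8 fell, beside 24% and 24.1% of all tested genes, with a median of -0.01, and rises numbered 4 without vehicle replicate 45, 5 without semaglutide replicate 83 and 3 without semaglutide replicate 81. Tat, tyrosine aminotransferase, rose from 285–548 TPM (median 345) to 663–2711 TPM (median 1198), a log2 fold change of 1.71 ± 0.25 (standard error, FDR 9.2e-07). Cbs, cystathionine beta-synthase, rose with a log2 fold change of 0.78 ± 0.10 (standard error, FDR 8.2e-08), and Bckdhb, a subunit of the branched-chain ketoacid dehydrogenase, fell with a log2 fold change of -0.47 ± 0.06 (standard error, FDR 1.6e-07), or -0.29 with the length trend removed. All 3 separated the groups, but they were named for the smallest p in the list. Of its 34 members 5 had values that did not overlap, beside 17.5% of all tested genes. In the list of ATF4 stress and serine synthesis genes 6 of 17 fell and 1 rose, or 2 without vehicle replicate 47 or semaglutide replicate 84 or with the length trend removed, and Trib3 and Ddit3, both targets of ATF4, had log2 fold changes of -0.54 and -0.55 with FDRs of 0.00078 and 0.000899. Endoplasmic reticulum chaperones had 3 rises and 1 fall among 19, with 6 rises without semaglutide replicate 84 and 5 with the length trend removed. Herpud1 and Dnajc3 rose by 0.78 and 0.65, and P4hb, protein disulfide isomerase, fell by 0.44 on the log2 scale.

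Antioxidant and conjugating enzymes were mostly lower. Of 24 NRF2 targets and antioxidants 19 fell and none rose in the reported fit, against 24.1% and 24% of all genes, with a median of -0.45, and 1 rose without vehicle replicate 44 or 47 or semaglutide replicate 79 or 80. Gstm1 went from 1010.3–1689.5 TPM (median 1349.5) to 673–976 TPM (median 884), a log2 fold change of -0.73 ± 0.12 (standard error, FDR 4.1e-06), and Gstm3 from 18.4–70.2 TPM (median 47) to 3.65–11.49 TPM (median 7.46), a log2 fold change of -2.65 ± 0.36 (standard error, FDR 2.8e-07). Glutathione transferases of one class are close in sequence, so their reads may be divided unevenly. The members had a median of 1850.5 exonic bases, against 3976 over all tested genes, and 13 members fell with the length trend removed, with a median of -0.38. Of 39 P450 genes of families 1 to 3, 12 fell and 8 rose, beside 24.1% and 24% of all tested genes. The rises numbered 5 without vehicle replicate 46. With the length trend removed 9 fell and 12 rose, and the median went from -0.08 to 0.07. Cyp2a12 fell from 324–368 TPM (median 338) to 162.87–245 TPM (median 212), a log2 fold change of -0.78 ± 0.11 (standard error, FDR 5.9e-07), and Cyp3a13 rose from 68.7–88.1 TPM (median 73.4) to 119–152 TPM (median 135), a log2 fold change of 0.79 ± 0.11 (standard error, FDR 7.9e-07). Among 17 male-predominant liver genes 4 rose and 2 fell, and among 13 female-predominant ones 2 rose and 2 fell, or 1 with the length trend removed. The counts of both sex-biased lists moved by more than 1.5 times for many of the libraries left out, down to 1 and 1 for the first list and to 0 and 1 for the second. The organic anion carrier Slco1a1 went from 4.61–62.9 TPM (median 7.29) to 41.1–155 TPM (median 106), and its log2 fold change of 2.67 ± 0.99 (standard error, FDR 0.0243) did not pass without vehicle replicate 45, 46 or 48 or semaglutide replicate 81. Mup3, a major urinary protein with many near-identical copies, had a log2 fold change of 0.90 ± 0.25 (standard error, FDR 0.00314) and is uncertain for that reason.

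Interferon-stimulated genes were lower in part. Of 31 tested members 13 fell, 1 rose and 17 did not pass, with a median of -0.47. Over all tested genes 24.1% fell and 24% rose. The summed list overlapped between the groups, at 416 to 719 TPM in vehicle and 409 to 647 TPM after semaglutide. Cxcl10, a chemokine for T cells, had 5.40–22.4 TPM (median 10.6) in vehicle and 1.09–4.05 TPM (median 3.33) after semaglutide, a log2 fold change of -2.08 ± 0.43 (standard error, FDR 0.000132). Gbp2, a guanylate-binding protein, went from 3.32–17.2 TPM (median 8.77) to 1.45–3.55 TPM (median 2.75), a log2 fold change of -1.69 ± 0.35 (standard error, FDR 0.000153), and Ifit3b, close in sequence to Ifit3, had a log2 fold change of -1.05 ± 0.26 (standard error, FDR 0.00114). Cxcl10 separated the groups, and the ranges of Gbp2 and Ifit3b overlapped. The single rise was lost without vehicle replicate 47 or 48 or semaglutide replicate 79, 80 or 82, and became 2 without vehicle replicate 44 or semaglutide replicate 81 or 84.

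Promoters of the 3 named members are shown because all hold the interferon-stimulated response element, the letters bound by the STAT and IRF factors of interferon signalling, here searched as GAAA, any 2 bases and GAAA again, on both strands in the 250 bases before each RefSeq gene start (GRCm38.p6). Capitals mark the matches, which were 1 in Cxcl10 (chr5:92348890-92349139, minus strand), 1 in Gbp2 (chr3:142620413-142620662, plus strand) and 2 in Ifit3b (chr19:34607707-34607956, plus strand).
Cxcl10: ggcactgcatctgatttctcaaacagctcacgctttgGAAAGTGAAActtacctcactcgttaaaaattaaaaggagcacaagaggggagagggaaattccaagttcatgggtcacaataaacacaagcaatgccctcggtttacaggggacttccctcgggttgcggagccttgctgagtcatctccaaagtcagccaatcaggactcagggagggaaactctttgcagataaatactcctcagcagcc
Gbp2: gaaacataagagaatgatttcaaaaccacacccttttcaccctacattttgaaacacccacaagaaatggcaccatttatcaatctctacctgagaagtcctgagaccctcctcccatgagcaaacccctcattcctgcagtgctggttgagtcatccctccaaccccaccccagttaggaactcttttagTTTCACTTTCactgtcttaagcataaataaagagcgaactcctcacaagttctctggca
Ifit3b: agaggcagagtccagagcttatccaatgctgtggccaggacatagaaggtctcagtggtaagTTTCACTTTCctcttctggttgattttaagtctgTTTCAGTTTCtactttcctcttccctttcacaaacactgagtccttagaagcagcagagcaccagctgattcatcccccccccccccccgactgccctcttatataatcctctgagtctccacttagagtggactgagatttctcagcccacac
A match starts 213 bases upstream of the Cxcl10 start, 59 bases upstream of that of Gbp2, and 188 and 154 bases upstream of that of Ifit3b. Of 27025 genes with a listed promoter, 3.46% held a match, as did 13 of the 22 tested list members with a promoter. Of those 13, 6 fell and none rose, and of the 9 without a match 4 fell and none rose.

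Macrophage genes had the lowest median of the 27 lists. Of 20 genes of lipid-associated and infiltrating macrophages 15 fell and none rose, beside 24.1% and 24% of all tested genes, with a median of -1.21. The falls of 12 had the fold required for a call, beside 3.67% of all tested genes. With the length trend removed 14 fell and 1 rose. Ccl2, the chemokine that draws monocytes, fell from 2.06–7.36 TPM (median 4.54) to 0.26–0.75 TPM (median 0.495), a log2 fold change of -3.09 ± 0.52 (standard error, FDR 8.3e-06). Lgals3, galectin-3, fell from 9.68–33.4 TPM (median 22.9) to 5.63–9.40 TPM (median 7.50), a log2 fold change of -1.34 ± 0.26 (standard error, FDR 4.9e-05). Of the 20 members 3 had values that did not overlap between the groups, Lgals3 among them, beside 17.5% of all tested genes. Ctsd, the lysosomal protease cathepsin D, which hepatocytes also make, fell with a log2 fold change of -0.49 ± 0.07 (standard error, FDR 3.4e-07). Trem2, the lipid receptor that marks lipid-associated macrophages, had 2.37–8.87 TPM (median 5.03) in vehicle and 1.20–3.89 TPM (median 2.21) after semaglutide, a log2 fold change of -1.03 ± 0.38 (standard error, FDR 0.0233), which did not pass without vehicle replicate 43 or 46 or semaglutide replicate 81. The summed list lay at 488 to 834 TPM in vehicle and 369 to 535 TPM after semaglutide. Markers of resident Kupffer cells, in contrast, summed to 95.3 to 266 TPM and 144 to 237 TPM in the same libraries, with a ratio of means of 0.945 and an adjusted exact permutation p of 0.947.

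Lymphocyte and antigen presentation genes were lower with more spread. Of 21 tested, 9 fell and none rose, beside 24.1% and 24% of all tested genes, with a median of -0.91. None of the 21 had groups that did not overlap, beside 17.5% of all tested genes. Cd74, the invariant chain of MHC class II, went from 118–350.1 TPM (median 244) to 76–156 TPM (median 105), a log2 fold change of -1.10 ± 0.25 (standard error, FDR 0.00038), and the class II chains H2-Aa and H2-Eb1 had log2 fold changes of -1.19 and -1.27 with FDRs of 0.000391 and 0.000576. The summed list lay at 279 to 827 TPM in vehicle livers and at 167 to 365 TPM after semaglutide. Vehicle replicates 47 and 48, at 279 and 289 TPM, lay inside the semaglutide range, and the other 4 vehicle livers lay at 519 to 827 TPM. Beside it stand the lower B cell markers, at 2.92 to 5.83 and 1.66 to 3.48 TPM, and T and NK cell markers at 1.59 to 9.35 and 2.51 to 4.13 TPM, and their part in the result was not tested.

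**Figure D5:**
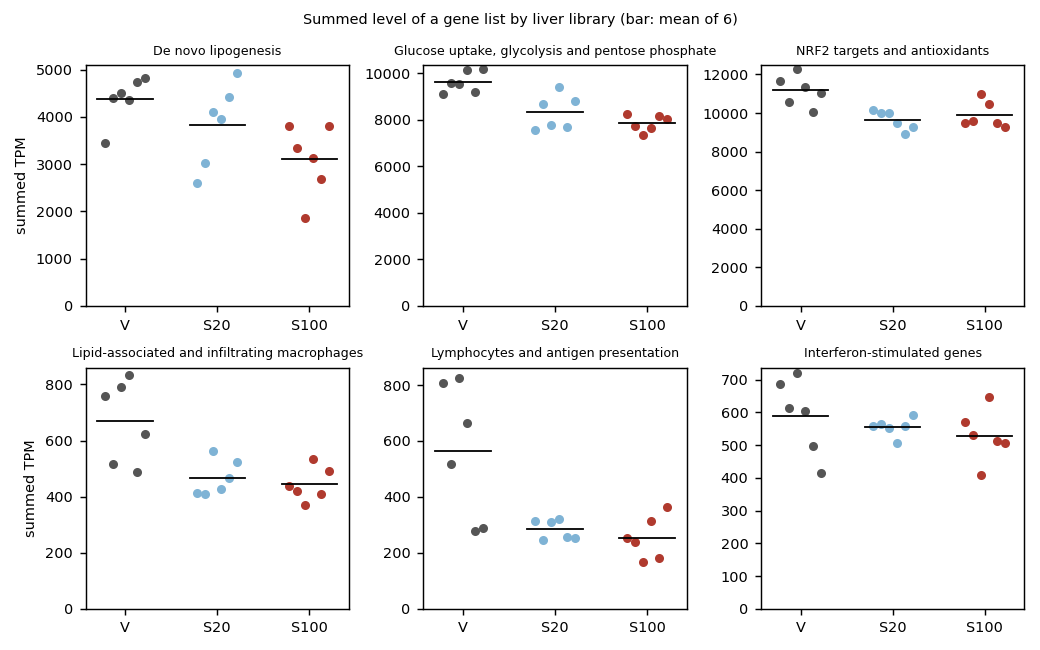
Summed TPM of 6 gene lists in each liver library of vehicle (V), semaglutide 20 (S20) and semaglutide 100 nmol/kg (S100), with the mean of 6 as a bar; each axis starts at 0. The vehicle livers spread widely for macrophage (488 to 834 TPM) and lymphocyte genes (279 to 827 TPM), and the glycolytic sum of all 6 livers at the higher dose lies below all vehicle livers.

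Matrix genes were mostly lower. Of 27 collagens and matrix genes 21 fell, 1 rose and 5 did not pass, with a median of -0.66. Over all tested genes 24.1% fell and 24% rose. In this list 20 fell and 1 rose with the length trend removed. Col3a1, a fibrillar collagen, had 12.5–41 TPM (median 24.6) in vehicle and 3.26–7.55 TPM (median 6.25) after semaglutide, a log2 fold change of -2.07 ± 0.32 (standard error, FDR 2.1e-06). Col1a1, the main fibrillar collagen of scars, fell from 4.25–19.2 TPM (median 8.91) to 1.32–3.13 TPM (median 2.44), a log2 fold change of -1.95 ± 0.38 (standard error, FDR 6.5e-05). Sparc, a collagen-binding matricellular protein, fell from 39.8–80.6 TPM (median 59.5) to 26.5–36.1 TPM (median 32.2), a log2 fold change of -0.92 ± 0.14 (standard error, FDR 1.4e-06). All 3 separated the groups, but Col3a1 and Sparc were named for their small p. Of the 27 members 7 had values that did not overlap, beside 17.5% of all tested genes. Fn1, fibronectin, which hepatocytes secrete into plasma, was the gene that rose, from 452–533 TPM (median 502) to 638–736 TPM (median 704), a log2 fold change of 0.84 ± 0.11 (standard error, FDR 2.6e-07), or 0.52 with the length trend removed. It was also by far the most abundant of those named, and the summed list overlapped between the groups, at 1059 to 1508 TPM in vehicle and 1217 to 1434 TPM after semaglutide. Stellate cell markers summed to 50.8 to 83.2 and 49.4 to 74.6 TPM.

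Proliferation genes were lower in part, from a low base. Of 32 tested, 18 fell and 3 rose, beside 24.1% and 24% of all tested genes, with a median of -0.50. The summed list overlapped between the groups, at 79.13 to 97.04 TPM in vehicle and 80.71 to 98.25 TPM after semaglutide. E2f1, a factor that drives entry into S phase, fell from 1.94–3.49 TPM (median 2.33) to 1.02–1.56 TPM (median 1.22), a log2 fold change of -1.04 ± 0.16 (standard error, FDR 1.6e-06). Mcm5, a subunit of the replicative helicase, and Ube2c, a mitotic ubiquitin-conjugating enzyme, fell with log2 fold changes of -1.12 and -1.76, from vehicle medians of 1.41 and 1.06 TPM. In tests on log2 TPM the falls numbered 11.

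Secreted plasma proteins were more often higher than lower. Of 32 complement and coagulation genes 14 rose and 3 fell, against 24% and 24.1% of all genes, and the falls numbered 1 without semaglutide replicate 81 or 84 or with the length trend removed. C3, the central complement protein, rose from 1349–1816 TPM (median 1579.8) to 2213–2920.5 TPM (median 2441), a log2 fold change of 0.67 ± 0.10 (standard error, FDR 6.1e-07), and F5, coagulation factor V, from 54.7–107 TPM (median 75.2) to 116–159 TPM (median 129.6), a log2 fold change of 0.69 ± 0.10 (standard error, FDR 5.9e-07). Hc, complement C5, had a log2 fold change of 0.72 in reads, while its TPM values, at 209 to 267 and 268 to 304, differed less. Among 27 acute phase and iron genes 11 rose and 3 fell. Fga, a fibrinogen chain, rose from 1972–2655 TPM (median 2203) to 4010.5–4594 TPM (median 4084), a log2 fold change of 0.82 ± 0.14 (standard error, FDR 1.4e-05), and Itih3, an inter-alpha-trypsin inhibitor chain, from 252–365 TPM (median 311) to 501–689 TPM (median 565), a log2 fold change of 0.85 ± 0.10 (standard error, FDR 4.3e-08). Saa1, the acute phase serum amyloid, had 188–422 TPM (median 373) in vehicle and 178–1978 TPM (median 495) after semaglutide, and its log2 fold change of 0.81 had a 95% interval of -0.53 to 2.15. The hepatocyte marker sum, which was higher after semaglutide, moved with these lists, and its part in them was not tested. Its markers albumin and transthyretin are plasma proteins themselves. By recovered reads scaled to the library total the sum had a ratio of 1.145 and did not pass.

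Of 19 circadian clock genes 8 rose and 4 fell, beside 24% and 24.1% of all tested genes. The rises numbered 5 without vehicle replicate 45, and 7 rose and 6 fell with the length trend removed. Clock rose from 3.65–5.40 TPM (median 4.60) to 8.08–11.2 TPM (median 10.1), a log2 fold change of 0.96 ± 0.11 (standard error, FDR 2.0e-08), or 0.59 with the length trend removed. Per1, a clock repressor that hormones also induce, had a log2 fold change of 1.12 ± 0.18 (standard error, FDR 5.5e-06), and Dbp, a clock output factor, a log2 fold change of -0.99 ± 0.17 (standard error, FDR 7.6e-06).

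Respiratory chain genes fell slightly and together. Of 55 tested subunits 54 fell, against 24.1% of all genes, and none by the fold required for a call, with log2 fold changes from -0.50 to -0.15 and a median of -0.33. In 42 of them the TPM values of the groups did not overlap, beside 17.5% of all tested genes. Ndufa10 of complex I fell from 119–141 TPM (median 132) to 88.3–112 TPM (median 97.4), a log2 fold change of -0.45 ± 0.06 (standard error, FDR 4.6e-07). Sdhc of complex II and Uqcr10 of complex III had log2 fold changes of -0.43 and -0.40 with FDRs of 1.8e-06 and 2.3e-06, the latter -0.21 with the length trend removed. These are short genes, with a median of 1587 exonic bases, and with the length trend removed 43 fell with a median of -0.17. The summed list lay at 16441 to 19012 TPM in vehicle and 13539 to 15132 TPM after semaglutide.

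The lower dose was set beside the higher one. Semaglutide at 20 nmol/kg had 504 genes (3.16%) higher and 467 (2.93%) lower than vehicle at the fold required for a call, 6.08% in all, and 23% of genes higher and 23.5% lower without the fold requirement. In the direct test of 100 against 20 nmol/kg, limma with voom found 0 genes at an FDR of at most 0.05, with 482 at an unadjusted p under 0.05, of which 261 were higher at the higher dose. The edgeR and DESeq2 tests on recovered reads also found 0, with 449 and 442 at an unadjusted p under 0.05, and a fit on the 12 libraries of these groups alone found 1 gene at that FDR and none with the fold required for a call. The 95% interval of the difference between doses had a median half-width of 0.24 on the log2 scale, and these counts do not show that the doses act alike. Thrsp had a log2 fold change of -1.73 at the lower dose and -2.46 at the higher, with a difference of -0.72 (95% interval -1.53 to 0.08). Cfd had -3.77 and -4.92, with a difference of -1.15 (95% interval -2.66 to 0.36). For Fasn the lower dose gave -0.21 and the higher -0.52, with a difference of -0.30 (95% interval -0.67 to 0.06), and for Lpin1 3.33 and 2.87, with a difference of -0.46 (95% interval -1.46 to 0.53). None of these 4 intervals excluded 0. The lipogenesis list had 6 falls and 1 rise at the lower dose beside 10 and 1, the macrophage list 14 and 0 beside 15 and 0, the matrix list 16 and 1 beside 21 and 1, and the proliferation list 9 and 3 beside 18 and 3. Other lists went the other way. Endoplasmic reticulum chaperones had 6 rises at the lower dose beside 3, and clock genes 10 beside 8. Counts that pass at each dose do not test a difference between the doses. The respiratory chain and NRF2 lists had the same counts of falls at both doses, 54 and 19.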

How the data were processed

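RNA was sequenced from 42 liver samples in 7 groups of 6, and the libraries of vehicle and semaglutide were the ones described. The authors deposited a liver table that is a read signal per gene, in which 100% of values in each library were whole multiples of 1 step, within a tolerance of 0.1, so whole reads could be recovered. The division by that step is not explained in the sources used here. They also deposited TPM values, which were used for levels, with no TPM tool given. The submitters' processing notes name STAR 2.5.2b, RSEM 1.3.0, featureCounts 1.5.1 and FastQC 0.11.5 on mm10/GRCm38. The labels and the study's methods differ on the library kit and the sequencing layout. Fat libraries were not used here.

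Library numbers in the sample titles tied columns to groups. The deposited signal was tested with limma 3.58.1 and voom on TMM factors from edgeR 4.0.16 in R 4.3.3, after filterByExpr, in 1 fit over the 42 liver libraries with the contrast semaglutide minus vehicle and Benjamini-Hochberg FDR over all tested genes. Alternatives included edgeR and DESeq2 1.42.0 on recovered reads, limma on log2 TPM with 1 or 0.1 added, and each library left out. edgeR on recovered reads called 496 genes higher and 585 lower, and DESeq2 512 and 597. The fit was tested on simulated data. No pair among the 30 within-group pairs agreed within sampling noise. The labels give no animal numbers, so p-values and intervals measure the spread between these samples, which may in part be technical.

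Genes named were the 3 receptors, the 12 largest rises and 12 largest falls with mean TPM of at least 1 and values that did not overlap vehicle, clone-like symbols left out, the 3 members with the smallest p in each of 27 lists, and 20 defining genes, some of which are not reported here. The members and lists were chosen with earlier results of these data known. Gene positions and exon lengths are those of GENCODE M21, and promoters those of RefSeq.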

Additional observations from a re-analysis of the deposited data

Results flagged for a closer look

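Among the genes named in the report, 19 of 223 gene and group combinations held 1 liver that stood apart from the other 5 by Dixon's test, where chance alone gives about 1 in 20. Semaglutide replicate 81, which had the fewest recovered reads of the libraries compared, was that liver for 6 genes. Mt2 was at 244 TPM in vehicle replicate 46 and at 37.4 to 104 TPM in the other 5 livers of that group. Cfd was at 5.06 TPM in semaglutide replicate 80 and at 0.04 to 1.80 TPM in the other 5 livers of that group. Gsta1 was at 3.72 TPM in semaglutide replicate 84 and at 0.45 to 1.66 TPM in the other 5 livers of that group. Apob was at 1222 TPM in vehicle replicate 48 and at 1432 to 1513 TPM in the other 5 livers of that group. Abcb11 was at 121 TPM in semaglutide replicate 81 and at 167 to 192 TPM in the other 5 livers of that group. Nr5a2 was at 24.1 TPM in semaglutide replicate 82 and at 20.6 to 21.8 TPM in the other 5 livers of that group. Tat was at 2711 TPM in semaglutide replicate 81 and at 663 to 1398 TPM in the other 5 livers of that group. Igfbp2 was at 1205 TPM in semaglutide replicate 81 and at 652 to 769 TPM in the other 5 livers of that group. Hgf was at 1.16 TPM in vehicle replicate 48 and at 2.48 to 2.97 TPM in the other 5 livers of that group. Hgf was at 7.98 TPM in semaglutide replicate 82 and at 4.74 to 5.89 TPM in the other 5 livers of that group. Fga was at 4594 TPM in semaglutide replicate 80 and at 4010.5 to 4228 TPM in the other 5 livers of that group. Dbp was at 7.90 TPM in vehicle replicate 45 and at 9.67 to 10.5 TPM in the other 5 livers of that group. E2f1 was at 3.49 TPM in vehicle replicate 45 and at 1.94 to 2.38 TPM in the other 5 livers of that group. Mcm5 was at 2.33 TPM in vehicle replicate 45 and at 1.10 to 1.49 TPM in the other 5 livers of that group. Scd1 was at 1039 TPM in vehicle replicate 43 and at 1629.6 to 1800.2 TPM in the other 5 livers of that group. Cidec was at 140.3 TPM in semaglutide replicate 81 and at 21.4 to 36.9 TPM in the other 5 livers of that group. G6pc was at 564 TPM in semaglutide replicate 81 and at 254 to 355 TPM in the other 5 livers of that group. Cyp7a1 was at 174 TPM in semaglutide replicate 84 and at 21.2 to 69.4 TPM in the other 5 livers of that group. Igfbp1 was at 1298 TPM in semaglutide replicate 81 and at 211 to 505 TPM in the other 5 livers of that group.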

How the results depend on the processing

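No paired analysis was possible because library numbers differ in every group. Calls, 492 higher and 586 lower, were 262 and 270 with at least 10 in every liver library, 15 and 15 in a test against a log2 fold change of 1, 3835 and 3851 by FDR alone, and 159 and 118 on log2(TPM + 1). On log2(TPM + 0.1) there were 335 lower calls. With a library left out, higher calls ranged from 425 to 571 and lower calls from 471 to 714. Marker sums by recovered reads scaled to the library total no longer passed for hepatocytes (ratio 1.145), B cells (0.5947), adipocytes (0.8428) and periportal hepatocytes (1.285), and turned direction for erythroid (0.8682) and pericentral hepatocyte markers (0.9865). Of 2884 alternative values of 116 named genes, 2751 kept direction and call, 96 lost the call, 16 gained it and 21 turned direction, none of which had passed the test. Cpt1a was -0.034 with library size alone, -0.16 with the length trend removed and -0.054 to 0.061 with a library left out. Plin2 was -0.29 to 0.023 and G6pc -0.033 to 0.20 with a library left out. Cyp7a1 was 0.18 in edgeR and DESeq2, 0.079 and 0.077 on log2 TPM, 0.42 with sample quality weights, 0.013 with the length trend removed and -0.35 to 0.23 with a library left out. Cyp8b1 was 0.086 with the length trend removed. The causes were not tested. Between doses the median half-width of the 95% interval was 0.24.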

Other observations

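Genes that glucocorticoids are known to induce were higher in the semaglutide livers. This list of 16 genes was chosen after its values had been seen, and 7 of the genes described above (Zbtb16, Mt2, Lpin1, Tat, Igfbp1, Pck1 and Per1) are in it, so its count supports nothing by itself. Of the 16, 14 rose, none fell and 2 did not pass, where 24% of all tested genes were higher and 24.1% lower. In 10 the rise had the fold required for a call, beside 3.08% of all tested genes. The median log2 fold change was 1.31 against -0.02 over all tested genes. Fkbp5, a cochaperone of the glucocorticoid receptor, had 19.8–36.4 TPM (median 28.5) in vehicle and 75.4–157 TPM (median 129) after semaglutide, a log2 fold change of 1.88 ± 0.44 (standard error, FDR 0.000564). Cdkn1a, the cell cycle inhibitor p21, had a log2 fold change of 1.85 ± 0.40 (standard error, FDR 0.00022), Klf9 a log2 fold change of 0.83 ± 0.12 (standard error, FDR 7.7e-07) and Tsc22d3, the leucine zipper GILZ, a log2 fold change of 0.37 ± 0.16 (standard error, FDR 0.0493). Dusp1, a phosphatase, and Nfkbia, an inhibitor of NF-kappaB, had log2 fold changes of -0.25 and 0.15 with FDRs of 0.485 and 0.14. At 20 nmol/kg, set against the same vehicle livers, 15 of the 16 rose, with Fkbp5 at 1.93 and Tsc22d3 at 0.81 on the log2 scale.

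Loci of the annotation class TEC, transcripts that still await experimental checks, had 82 of 322 tested called higher (25.5%) and 10 lower (3.11%), beside 311 higher and 463 lower of 13740 coding genes. Of 11440 genes at 1 TPM or more in both groups, the ratio of mean TPM and the fitted fold change differed by more than 1 on the log2 scale in 18, 9 in each direction, and 2 had opposite signs with both values over 0.5 in size.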
